A study of Mus musculus with 8 samples.

Results

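The cells described here express Lhx6, a LIM-homeodomain transcription factor, and came from the frontal isocortex of mice at postnatal day 7. A cell was taken when it held at least 1 count of Gad1 or Gad2, the enzymes of GABA synthesis, at least 1 count of Lhx6, no count of Adarb2, and not counts of both Meis2 and Pbx3. Of 11494 cells sorted for a Drd1a-tdTomato reporter, 184 met this rule, and the whole series held 22876 cells. All 184 are used below and are called Lhx6 cells. The 6 genes of the rule are described without tests, since their counts chose the cells.

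Cortical interneurons are inhibitory neurons that are born below the cortex and migrate into it. Those born in the medial ganglionic eminence pass through a stage marked by the homeodomain factor Nkx2-1, then keep Lhx6, and mature into cells that make somatostatin (Sst) or parvalbumin (Pvalb). Those born in the caudal ganglionic eminence carry Adarb2, Prox1 and Sp8 and include the cells that make vasoactive intestinal peptide (Vip). Somatostatin cells of the cortex mostly contact the distal dendrites of pyramidal neurons, and a small group of them that also makes neuropeptide Y (Npy) and neuronal nitric oxide synthase (Nos1) sends long axons across cortical areas.

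Single live cells positive for tdTomato were sorted by flow cytometry and their RNA was counted by droplet 3′ sequencing. The reporter is a bacterial artificial chromosome transgene driven by sequence of the dopamine D1 receptor gene, so the sort sets which interneurons are seen and every share below is a share of sorted cells. All mice were homozygous for a floxed Foxp2 allele. The 2 control libraries had the genotype Drd1a-tdTomato; Foxp2 flox/flox, and the 2 conditional knockout (cKO) libraries Drd1a-tdTomato; Emx1-Cre; Foxp2 flox/flox, which removes Foxp2 in the lineage of Emx1-Cre. As background, that lineage holds the excitatory neurons and glia of the dorsal telencephalon and not the interneurons of the ganglionic eminences. The mice were littermates backcrossed to C57BL/6J, and no label says how many animals went into a library. Control 1 and cKO 1 were prepared on 1 day and control 2 and cKO 2 on another, and cKO 2 was the male library among 3 female ones.

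The 4 libraries held 2395 to 3206 cells each and 27323298 to 36379194 counts. Between 14 and 26 cell barcodes were shared by any pair of libraries, and none of them belonged to Lhx6 cells. Control 1 gave 39 Lhx6 cells, control 2 gave 45, cKO 1 gave 59 and cKO 2 gave 41. Their median count per cell was 12925, 15871, 15431 and 8789 in the same order, so those of cKO 2 were the shallowest. The median share of mitochondrial counts was 2.46%, 4.03%, 2.64% and 5.30%, highest in cKO 2. Levels below are counts per 1000000 counts (CPM) of the cells named, summed per library, and lists of 4 values follow the order control 1, control 2, cKO 1, cKO 2.

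Most of the Lhx6 cells, but not all, fell into a cluster led by genes of medial interneurons. All 11494 cells were clustered without cell type or genotype labels, but with each gene scaled within its library. The place of a cell thus also depends on the other cells of its library. Of the 184 Lhx6 cells, 112 fell into 1 cluster of 238 cells led by Sst, Npy, Lhx6 and Crhbp, called the Sst cluster here. The other 72 were spread over clusters led by genes of other cells, among them astrocytes, oligodendrocyte precursors and excitatory neurons. The Sst cluster took 33 of 39 Lhx6 cells in control 1, 31 of 45 in control 2, 39 of 59 in cKO 1 and 9 of 41 in cKO 2. In cKO 2, most of the cells chosen by the rule thus lay elsewhere, so values for the 112 cells are given beside the main results below. The cluster was built from the expression of 2000 variable genes in these cells, so differences between cells inside and outside it are a description and not a result. The genes of the rule were not left out beforehand, and Lhx6 is among its leading genes. A place in the cluster is thus no independent check of the label of medial interneurons.

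The vesicular GABA transporter Slc32a1, itself among the leading genes of the cluster, had a count in 75.0% of the 112 cells and in 19.4% of the other 72. Its level in the 112 cells was 242, 203, 274 and 140 CPM, and in the 72 cells 68.9, 20.9, 22.6 and 6.76 CPM. The astrocyte glutamate transporter Slc1a3 went the other way, with 35.8, 415, 69.2 and 928 CPM inside and 768, 828, 1257 and 1284 CPM outside. Summed over 6 astrocyte markers, the level outside ranged from 2050 to 3755 CPM and inside from 213 CPM in control 1 to 2226 CPM in cKO 2. The 9 excitatory markers summed to between 295 and 1148 CPM outside and between 43.7 and 452 CPM inside. Inside the cluster both libraries of the second day, control 2 and cKO 2, were above those of the first day in both sums. Of 5 microglial markers, Cx3cr1, C1qa and Tmem119 were at 0 in the 112 cells, Csf1r had counts in 3 cells and P2ry12 in 1, and the list summed to between 0 and 8.21 CPM. Counts of 2 or more markers of 1 other cell type were found in 153 of the 184 cells and in 82 of the 112. The part of these markers in the results below was not tested. Of the 184 cells, 6 were among those with the highest doublet scores of their library.

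Cells that entered the rule on a single Lhx6 count lay less often in the cluster than cells with more. Of 106 Lhx6 cells with 1 Lhx6 count, 45.3% were in the Sst cluster, of 31 with 2 counts 71.0%, and of 47 with 3 or more 89.4%. Just outside the rule, 1539 cells met all of it except the Lhx6 count, and 3.96% of them were in the cluster. Of 46 Lhx6 cells with a Gad1 and Gad2 sum of 1, 6 were in the cluster, against 90 of 113 with a sum of 3 or more. In astrocyte clusters 2.22% of 2879 cells had an Lhx6 count. Depth rose in step, with median counts per cell of 11063, 15239 and 21204 at 1, 2 and 3 or more Lhx6 counts. For a Gad1 and Gad2 sum of 1 the median was 9049, against 17026 for a sum of 3 or more. These figures describe the threshold and were not tested, nor was the part of depth in them.

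**Figure D1:**
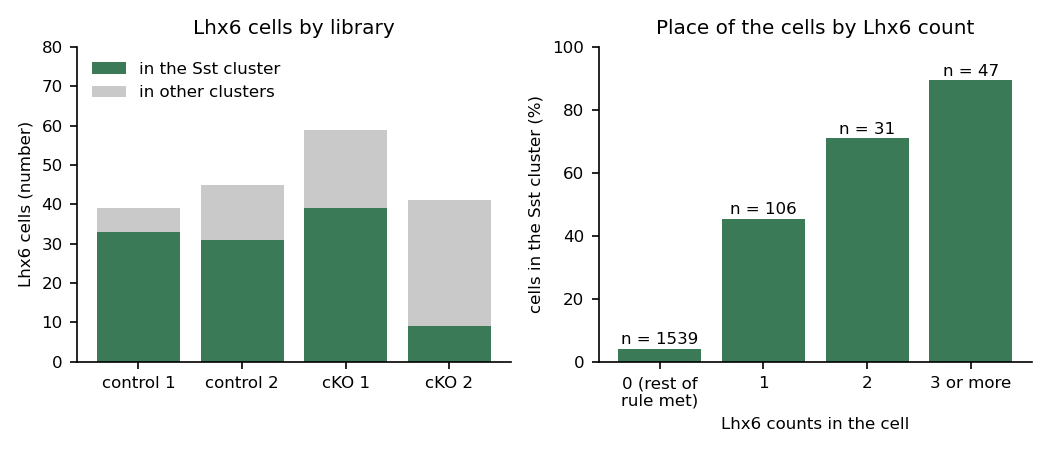
Left, number of Lhx6 cells in each of the 4 libraries (bars from 0), split into those in the Sst cluster and those elsewhere. Right, percent of cells in the Sst cluster by their Lhx6 count, with 3.96% at 0 counts (cells that miss only Lhx6) and 89.4% at 3 or more. cKO 2 has 9 of its 41 cells in the cluster.

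Transcription factors of the medial lineage had counts in most Lhx6 cells and in many other cells as well. Sox6, which acts after Lhx6 in positioning and maturation, had a count in 67.4% of the 184 cells, at 215, 171, 154 and 122 CPM. It also had one in 58.3% of the 72 cells outside the cluster and in 30.05% of cells in astrocyte clusters, whose median count per cell was 7808 against 13039.5 in Lhx6 cells. Thinned to 1000 counts per cell, Sox6 was found in 17.4% of Lhx6 cells, 5.38% of astrocyte-cluster cells and 3.48% of Adarb2 cells, the comparison class described below. The chromatin organiser Satb1 had a count in 70.1% of the 184 cells and in 69.4% of the 72, and its thinned shares were 24.5%, 9.59% and 4.95% in the same 3 classes. Maf, a basic leucine zipper factor, had a count in 67.4%, with thinned shares of 24.5%, 3.20% and 25.8%. The exact binomial intervals of its shares in Lhx6 cells (18.4 to 31.3%) and in Adarb2 cells (22.7 to 29.1%) overlapped. Nkx2-1 had a count in 10.9% of Lhx6 cells, and in 4.89%, 0.0347% and 0.268% after thinning. Pvalb had a count in only 2 of the 184 cells, 1.09%, so the parvalbumin class was not visible by its own transcript at this age and depth.

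Sst is the gene by which these cells are best known, and its promoter is shown here because the cyclic AMP response element in it is the textbook case of that motif. The 250 bases before the annotated start, from RefSeq on GRCm38.p6, lie at chr16:23890845-23891094 on the minus strand, with the element TGACGTCA in capitals.

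Sst promoter: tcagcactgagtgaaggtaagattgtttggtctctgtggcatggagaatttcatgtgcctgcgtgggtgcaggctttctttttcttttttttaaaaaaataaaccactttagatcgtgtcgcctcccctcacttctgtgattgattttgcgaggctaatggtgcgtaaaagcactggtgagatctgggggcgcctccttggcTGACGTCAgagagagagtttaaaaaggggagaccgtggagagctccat

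The element lies 48 to 41 bases before the start. It reads the same on both strands and was found in 508 of 32851 promoter windows of 250 bases, 1.55%. Of the 11 genes with the largest fold changes in favour of Lhx6 over Adarb2 cells, 9 had a window and 1, Sst, held the element. Of the 11 with the largest in the other direction, 7 had a window and 0 held it. A match is a description of the letters and not a measured site.

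Against cells that carry the caudal gene Adarb2, the Lhx6 cells differed by a large set of genes that included most known markers of both. The Adarb2 cells taken for this comparison had a Gad1 or Gad2 count, an Adarb2 count and no Lhx6 count, and not counts of both Meis2 and Pbx3. There were 749 of them, with 227, 163, 231 and 128 in the 4 libraries. As with the Lhx6 cells, not all of them lay in clusters of their own kind: 539 were in 2 clusters led by Tac2, Crh and Cxcl14 and by Lamp5 and Sv2c (198, 97, 185 and 59), and 55 were in a cluster led by Igfbpl1 and Dlx2. Counts were summed per class and library and tested with edgeR, with library as a block, over 10510 genes. At an adjusted p under 0.05, 879 genes (8.36%) differed, 505 higher in Lhx6 cells (4.8%) and 374 lower (3.56%). DESeq2 called 474, and all 474 were among the 879. Without cKO 1 the test called 371, and without cKO 2 it called 707.

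Between the 112 Lhx6 cells of the Sst cluster and the 539 Adarb2 cells of the 2 clusters, 1288 of 8939 genes differed (14.4%), 730 higher (8.17%) and 558 lower (6.24%), and 797 of the 879 were among them. These clusters were built from the expression of the same cells, so these counts are a description. There 8 of 11 medial factors were higher and 1 lower, 16 of 21 medial subtype genes were higher and 4 lower, and 11 of 14 caudal genes were lower and 0 higher. The values below are for all Lhx6 and Adarb2 cells unless the clusters are named.

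Sst had 6461, 1752, 2972 and 278 CPM in Lhx6 cells and 6.53, 75.7, 41.0 and 20.5 CPM in Adarb2 cells. The 2 classes did not overlap, although the Lhx6 value in cKO 2 was far below the other 3. The log2 fold change was 6.13 (SE 0.54, adjusted p = 3.21e-07). Nos1, the nitric oxide synthase, had 286, 205, 188 and 50.3 CPM against 4.12, 17.1, 8.28 and 8.86 CPM. Its log2 fold change was 4.36, with an adjusted p of 2.29e-08. Cort, the gene of the somatostatin-like peptide cortistatin, was at 41.3, 20.7, 159 and 19.2 CPM in Lhx6 cells and at most at 2.37 CPM in Adarb2 cells (log2 fold change 5.13). Crhbp, which encodes the binding protein of corticotropin-releasing hormone, was at 38.0, 37.5, 99.5 and 31.1 CPM against at most 4.27 CPM (log2 fold change 4.94). The opioid peptide gene Pdyn averaged 25.9 ± 10.5 CPM (SD, n = 4 libraries) in Lhx6 cells and 1.22 ± 1.00 in Adarb2 cells.

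Transcription factors known from the medial lineage were mostly higher in the Lhx6 cells. Of 14 factors listed for the medial lineage 11 were tested, of which 8 were higher and 1 lower, with a median log2 fold change of 0.73 against 0.00 over all genes. Satb1 had 387, 443, 485 and 285 CPM against 31.3, 104, 63.1 and 94.1. Sox6 was higher by 2.42 on the log2 scale and Maf by 0.73. Nkx2-1 was low in both classes, at 28.1, 11.6, 25.9 and 9.58 CPM in Lhx6 cells and at most 2.04 CPM in Adarb2 cells (log2 fold change 3.88). Npas3, a basic helix-loop-helix factor, was the member that was lower, at 172 ± 57.9 against 261 ± 20.5 CPM (SD, n = 4 libraries), and it missed the threshold in the cells of the clusters (adjusted p = 0.0529). By DESeq2, 6 of the 11 were higher and 0 lower. Klf5, a zinc finger factor among the genes with the largest differences, averaged 120 ± 56.9 CPM in Lhx6 and 9.17 ± 3.52 CPM in Adarb2 cells (SD, n = 4 libraries), a log2 fold change of 3.76.

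Genes that mark medial subtypes were mostly higher as well. Of 27 listed, 21 were tested, 16 were higher and 4 lower, with a median log2 fold change of 2.50. The NMDA receptor subunit Grin3a had 546, 503, 515 and 271 CPM against 113, 92.0, 130 and 78.4 (log2 fold change 2.20, adjusted p = 3.52e-10). Elfn1, the synaptic adhesion protein that shapes excitatory input onto somatostatin cells, had 180, 127, 185 and 76.6 CPM against 33.0, 26.0, 27.2 and 17.7. Both genes were higher in all 4 libraries, with no overlap between the classes. Npy was higher on average (log2 fold change 2.93, adjusted p = 0.000145) but not in every library, since in cKO 2 it was at 484 CPM in Lhx6 cells and 567 in Adarb2 cells. In the cells of the clusters it was higher in all 4 libraries, at 17361, 6791, 9418 and 1339 CPM against 1125, 700.2, 689.7 and 1067. The 4 that were lower were Crh, Reln, Cbln2 and Tac2. Reln, the secreted protein of layer 1 cells and many interneurons, had 342, 444, 271 and 239 CPM against 963, 754, 868 and 839.

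Genes of the caudal lineage were lower without exception among those that passed. Of 17 listed 14 were tested, 11 were lower and 0 higher, with a median log2 fold change of −2.93. Prox1, the homeodomain factor of the caudal lineage, averaged 7.19 ± 4.99 CPM in Lhx6 cells and 156 ± 42.9 in Adarb2 cells (SD, n = 4 libraries; log2 fold change −4.62). Sp8 had 0, 7.75, 0 and 9.58 CPM against 90.0, 75.7, 136 and 99.5. The chemokine Cxcl14 had 52.9, 33.6, 56.7 and 71.8 CPM against 1681, 583, 1246 and 466. Lamp5, a membrane protein of neurogliaform cells, averaged 3.17 against 101 CPM, and the serotonin receptor gene Htr3a 1.32 against 31.9 CPM. Vip had 3 counts in all Lhx6 cells together and 402 in Adarb2 cells. The cannabinoid receptor Cnr1 was lower by 2.51 on the log2 scale, at 177 ± 22.6 CPM in Lhx6 and 1063 ± 309 CPM in Adarb2 cells (SD, n = 4 libraries). Of the 3 listed genes that did not pass, Npas1 had a log2 fold change of −0.41 (adjusted p = 0.0971) and Nr2f2 one of −0.77 (adjusted p = 0.0741).

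The other genes with the largest differences had varied roles. Sema3c, a secreted semaphorin, averaged 17.2 ± 9.71 CPM in Lhx6 cells and 258 ± 80.6 in Adarb2 cells (SD, n = 4 libraries). Thbs1, a secreted matrix protein, averaged 39.6 ± 15.1 against 2.81 ± 0.90 CPM. Tmem132c, Nxph2, Dgkg and Cdc42ep5 were higher by 3.43 to 5.19 on the log2 scale, and Crh, Cpne7 and Rasd2 were lower by 3.51 to 4.37. Nxph2 missed the threshold with a stricter cell rule, which left no Lhx6 cell of cKO 2, and Cdc42ep5 missed it without cKO 1. Tac2 and Asic4, with 2 and 3 counts in Lhx6 cells, were at 44.5 ± 24.0 and 35.1 ± 14.6 CPM in Adarb2 cells (SD, n = 4 libraries).

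**Figure D2:**
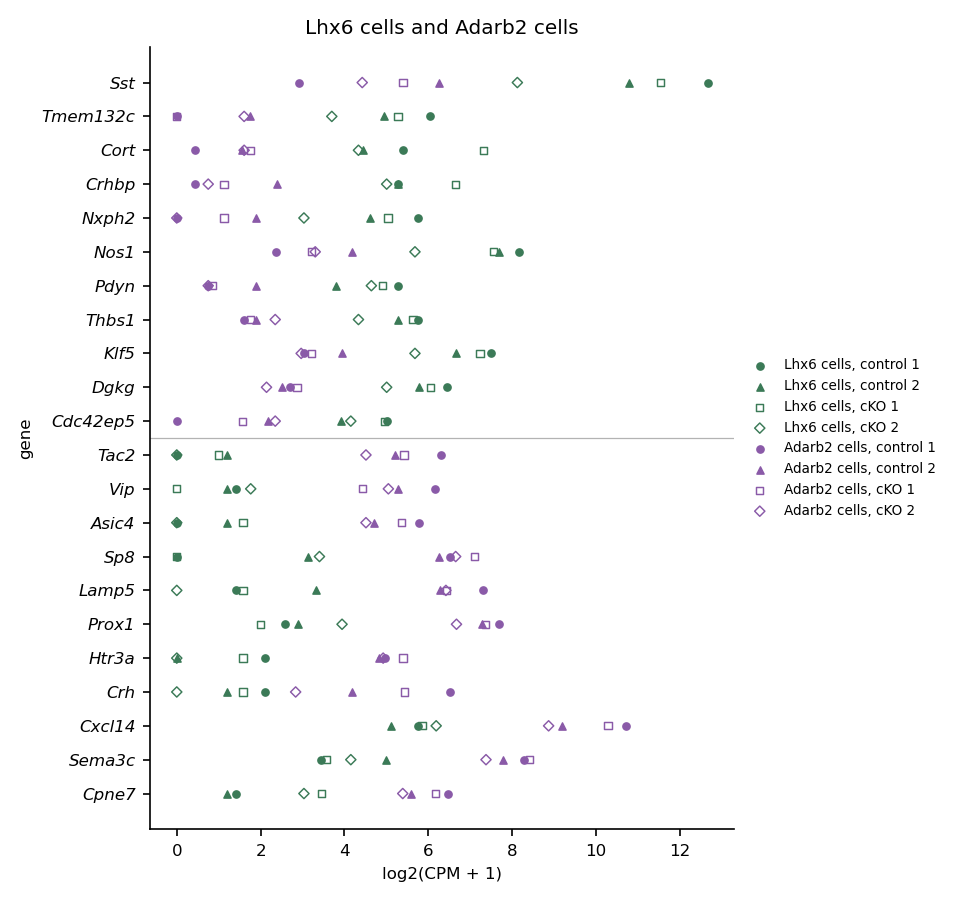
Level of the 22 genes with the largest differences, 11 in each direction, in Lhx6 cells and in Adarb2 cells, 1 point per library, on the scale log2(CPM + 1). Genes above the line were higher in Lhx6 cells and genes below it lower. Sst ranges from 278 to 6461 CPM in Lhx6 cells and stays at or under 75.7 CPM in Adarb2 cells.

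The machinery of inhibition and excitation differed in a few members. Of 19 glutamate receptor genes tested 7 were higher in Lhx6 cells and 0 lower (median log2 fold change 0.35). Besides Grin3a these included the AMPA subunit Gria1 (279 ± 143 against 110 ± 16.3 CPM; SD, n = 4 libraries). Of 13 GABA receptor genes 1, Gabra3, was higher and 4 were lower. Slc12a5, the chloride exporter whose rise makes GABA hyperpolarizing, had 172, 161, 140 and 83.8 CPM against 82.4, 78.0, 74.2 and 49.1, with no overlap of the classes (adjusted p = 3.66e-05). It was the 1 gene of 6 tested for GABA synthesis and transport that passed. Slc32a1 differed by 0.12 on the log2 scale, with an adjusted p of 0.751. The homeodomain factors Dlx1, Dlx2 and Dlx5, shared by all forebrain interneurons, were lower by 0.82 to 1.06 on the log2 scale. Erbb4, a neuregulin receptor of migrating interneurons, was lower by 1.03 and Plxna2, a semaphorin receptor, higher by 0.74.

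Foxp2 itself was low in both classes. It had 3, 12, 2 and 2 counts in Lhx6 cells, or 4.96, 15.5, 1.99 and 4.79 CPM, against 18.5, 28.3, 32.7 and 22.5 CPM in Adarb2 cells. Over all these cells the log2 fold change was −1.93 (SE 0.41, adjusted p = 0.00491). In the cells of the clusters it was at 1.99, 2.06, 0 and 0 CPM against 1.66, 11.3, 7.13 and 2.99, too low to be tested, and control 1 was not lower. The row the count table names Drd, a dopamine receptor row whose full name the table does not give, was at 44.6, 60.7, 34.8 and 19.2 CPM against 50.5, 77.3, 46.5 and 32.7. Its log2 fold change of −0.33 had an adjusted p of 0.358. A Drd count was found in 26.6% of Lhx6 cells, 30.3% of Adarb2 cells and 8.58% of cells in astrocyte clusters, and after thinning every cell to 1000 counts in 6.52%, 4.55% and 1.35%.

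Other measures also moved with the class. Of 13 mitochondrially encoded genes, 7 were higher in Lhx6 cells and 0 lower (median log2 fold change 0.26), as for mt-Nd1 with 11785, 17074, 12569 and 21219 CPM against 10370, 15521, 11347 and 17902. In the cells of the clusters 0 of 13 passed, and with at least 3 counts required of Lhx6, of Adarb2 and of the Gad genes 0 of 12. That stricter rule left 40 Lhx6 cells, none of them from cKO 2. Of 6 astrocyte, 6 excitatory and 5 oligodendrocyte precursor markers 0 passed, and of 4 endothelial and mural markers 1 did, Cldn5, with 1.65, 37.5, 0 and 177 CPM in Lhx6 cells. Leaving out cells with 2 or more markers of 1 other type left 102 genes called of 3633, with 11 of 11 caudal genes lower and 4 of 10 medial factors higher. It also left only 31 Lhx6 cells, 14, 3, 13 and 1 in the 4 libraries. The part of these measures in the results was not tested.

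Sst and Npy varied over a wide range among the Lhx6 cells. The count of Sst per cell ran from 0 to 893, with medians of 20, 10, 2 and 0 in the 4 libraries. Inside the Sst cluster the medians were 29, 20, 31 and 4. The count of Npy ran from 0 to 1824, with medians of 12, 5, 3 and 0 over all Lhx6 cells. Control 1 was highest and cKO 2 lowest for both peptides over all Lhx6 cells, and within the cluster cKO 2 alone had a median Sst count under 20.

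An Sst count was present in 57.1% of the 184 cells (95% exact binomial interval 49.6 to 64.3), in 72.3% of the 112 and in 33.3% of the other 72. Cells of another type give a background for such shares, and in astrocyte clusters 14.1% of cells had an Sst count. The source of those counts was not tested. Thinned to 1000 counts per cell, the shares were 37.5% of all Lhx6 cells, 58.9% of those in the cluster, 4.17% of those outside and 2.99% in astrocyte clusters. The interval of the thinned share outside the cluster, 0.868 to 11.7%, included the astrocyte value. Even so, 4 of these 72 cells held at least 10 Sst counts, with a highest count of 117. For Npy the thinned shares were 35.3% of all Lhx6 cells, 47.3% inside and 16.7% outside, against 6.36% in astrocyte clusters and 17.1% in Adarb2 cells. 

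The 2 peptides were found together in many cells and apart in others. With at least 10 counts as a cut, 44 of the 184 cells held both, 24 held Sst alone, 17 held Npy alone and 99 held neither. Inside the cluster the numbers were 40, 24, 13 and 35. Counts of both Nos1 and Chodl, the pair that marks the long-range type, were found in 20 Lhx6 cells, 7, 7, 5 and 1 in the 4 libraries. All 20 had at least 10 Npy counts and 19 had at least 10 Sst counts. Chodl, a C-type lectin domain protein, was found in 19 of 68 cells with at least 10 Sst counts and in 2 of the 116 others. Tac1, the substance P gene, was found in 0 of the 68 and in 6 of the 116.

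**Figure D3:**
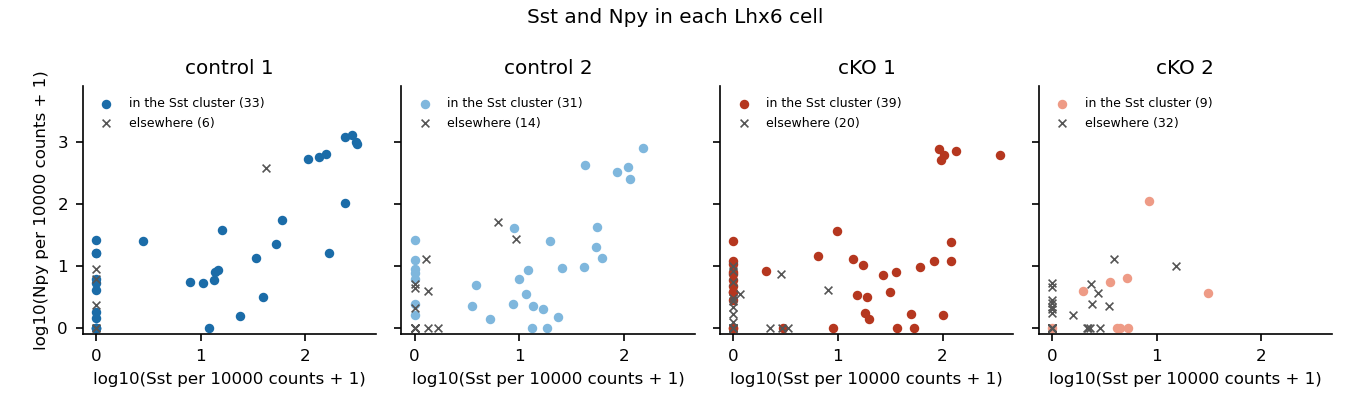
Npy against Sst in each Lhx6 cell, 1 panel per library, both axes as counts scaled to the same total per cell, on a log10 scale after adding 1, with colour for cells in or outside the Sst cluster. Cells high in both peptides, cells high in Sst alone and cells near 0 are seen in the first 3 libraries, and cKO 2 has 9 cells of the cluster.

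The Sst-rich cells, with at least 10 Sst counts, were compared with the Sst-free ones, with 0. There were 68 rich cells (21, 23, 22 and 2 in the 4 libraries) and 79 free ones (16, 15, 26 and 22). Over all of them 471 of 6162 genes differed (7.64%), 256 higher (4.15%) and 215 lower (3.49%) in the rich cells, and 140 without cKO 1. Under the stricter cell rule 28 differed, but that rule left 29 rich and 8 free cells and none of either from cKO 2. However, 48 of the 79 free cells lay outside the Sst cluster. In this comparison 5 of 5 astrocyte markers tested and 9 of 12 mitochondrial genes were lower in the rich cells. The comparison within the cluster is therefore given in detail. It is a description too, since the cluster was built from the expression of these cells and is led by Sst and Npy. It set 64 rich cells (20, 21, 22 and 1) against 31 free ones (11, 7, 12 and 1), so cKO 2 rests on 1 cell in each class. Of 2896 genes tested there, 203 differed (7.01%), 151 higher (5.21%) and 52 lower (1.8%), and 149 of these were among the 471. Over all 238 cells of the cluster 127 of 4726 genes differed (2.69%), 83 higher (1.76%) and 44 lower (0.931%), of which 102 were among the 203. Median counts per cell were 19548.5 in the rich and 8273 in the free cells, and the part of depth in these differences was not tested. Without cells that held 2 or more markers of another type, 2 genes were called over all Lhx6 cells, Synpr and Pcp4. That left 11 rich and 14 free cells, and cKO 2, with 0 rich ones, dropped out of the test.

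Within the cluster the rich cells were higher in most medial subtype genes that could be tested. Npy had 23339, 9437, 11742 and 263 CPM in the rich and 708, 750, 569 and 0 CPM in the free cells (log2 fold change 4.42, SE 0.35, adjusted p = 5.29e-33). Of 27 listed medial subtype genes 10 were tested, 7 were higher and 0 lower, with a median log2 fold change of 3.30 against 0.04 over all genes. Grin3a had 709, 857, 975 and 1313 CPM against 297, 0, 0 and 0. Reln had 471, 579, 509 and 1116 CPM against 131, 12.5, 21.9 and 0. Reln was thus higher in the rich cells, although it was lower in Lhx6 than in Adarb2 cells. Synpr, a synaptic vesicle protein, had 538, 421, 577 and 1050 CPM against 52.4, 0, 0 and 0. The growth factor Igf1 averaged 239 ± 72.3 CPM in the rich and 11.9 ± 16.5 in the free cells (SD, n = 4 libraries). Slc32a1 was higher by 1.28 on the log2 scale (adjusted p = 0.0134) and Slc12a5 by 2.17 (adjusted p = 0.000326).

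Some genes listed for the caudal lineage were also higher in the rich cells. Of 5 tested, 3 were higher and 2 lower, with a median log2 fold change of 3.66. Npas1, a basic helix-loop-helix factor, had 108, 135, 223 and 263 CPM in the rich cells and 0 counts in the 31 free cells. Its log2 fold change of 7.90 rests on those 0 counts. Among all cells of the cluster the difference was smaller. There Npas1 had 28.3, 8.0, 11.4 and 62.8 CPM in the free cells, with a log2 fold change of 3.25. Cnr1 averaged 274 ± 48.9 CPM against 14.8 ± 17.3 (SD, n = 4 libraries) and the orphan nuclear receptor Nr2f2 156 ± 156 against 11.3 ± 15.5. Nr2f2 had 0 counts in the cKO 2 cell of each class.

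The genes that were higher in the free cells of the cluster included transcription factors, adhesion molecules and receptors. Mef2c, a MADS-box factor, had 3381, 2749, 3163 and 7381 CPM in the free and 790, 620, 420 and 525 CPM in the rich cells (log2 fold change −2.39, SE 0.26, adjusted p = 4.89e-17). Id2, an inhibitor of helix-loop-helix factors, had 489, 700, 854 and 963 CPM in the free and 40.6, 143, 33.0 and 0 in the rich cells. Erbb4 had 411, 337, 350 and 0 CPM against 37.9, 23.4, 35.0 and 0, so that cKO 2 gave no count in either class. Thsd7a, Alcam, Cdh6, Zeb2 and Sox4 were lower in the rich cells by 1.44 to 3.31 on the log2 scale. Of 11 medial factors tested, 3 were higher in the rich cells (Satb1, Pou3f3 and Npas3) and 3 lower (Mef2c, Zeb2 and Nkx2-1). Nkx2-1 had 0 counts in all 68 rich Lhx6 cells and 52 in the 79 free ones, at 90.7, 42.0, 74.0 and 10.4 CPM in the free cells. Its log2 fold change of −7.23 over all these Lhx6 cells rests on those 0 counts. Sox6 did not pass within the cluster (adjusted p = 0.107).

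**Figure D4:**
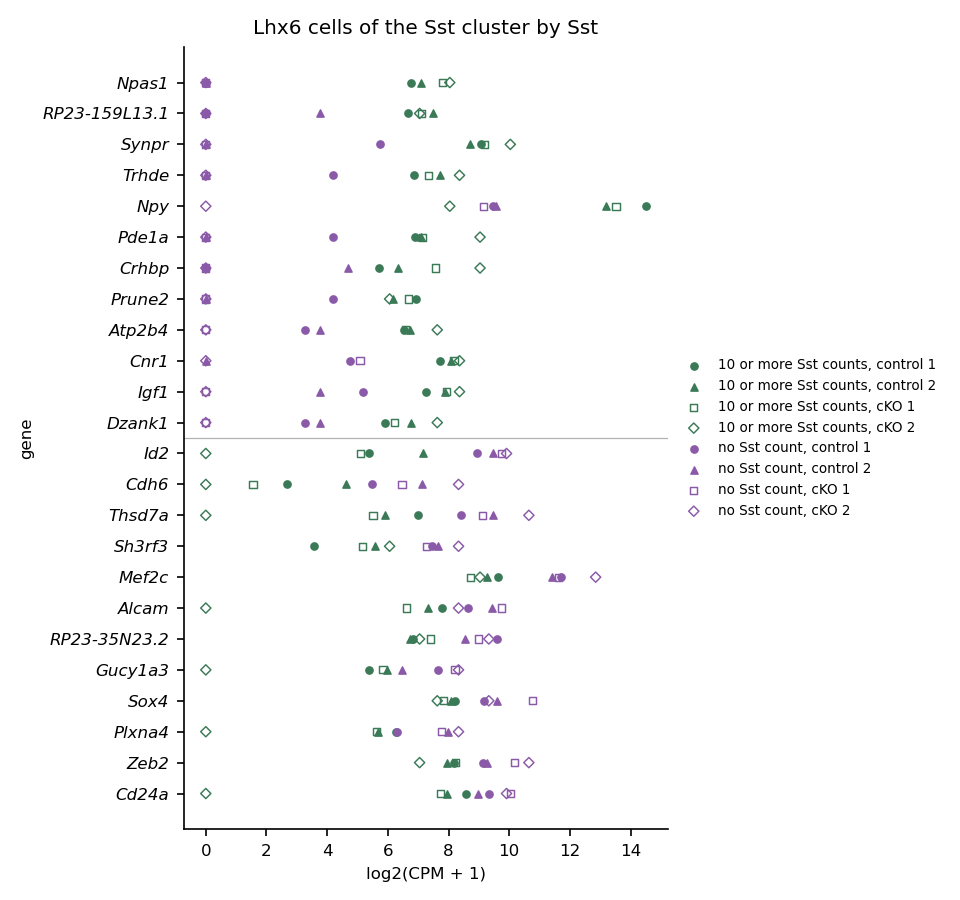
Level of 24 genes in Sst-rich and Sst-free Lhx6 cells of the Sst cluster, 1 point per library, on the scale log2(CPM + 1). Npas1 is at 0 in all 4 libraries of the free cells, Mef2c lies between 420 and 790 CPM in the rich cells and between 2749 and 7381 CPM in the free ones, and each point of cKO 2 rests on 1 cell.

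The question of the design, what loss of Foxp2 in the Emx1-Cre lineage changes, was then asked of the Lhx6 cells. Foxp2, the targeted gene, had 3, 12, 2 and 2 counts in them, and in the 112 cells of the cluster 1, 1, 0 and 0. It was too low to be tested, and 3′ tags need not fall on the floxed exons. Its level over all sorted cells was 36.3, 39.1, 26.5 and 19.4 CPM, lower in cKO. The libraries also differed in their mix of cells, so this difference does not by itself check the genotype labels. The part of that mix was not tested.

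No gene passed between cKO and control Lhx6 cells. Of 8402 genes tested with edgeR 0 passed (0.0%), with 167 at an unadjusted p under 0.05, and DESeq2 called 0 with 47. In 1057 genes (12.6%) both cKO libraries were above both controls and in 1110 (13.2%) below. In simulated counts of the same depth, 10 of 99 genes with a 2-fold change and 73 of 93 with a 4-fold change were recovered, so that 2-fold changes were mostly out of reach. The replicate number stands for the preparation day, and with it as a block 76 genes passed (0.905%), 60 higher (0.714%) and 16 lower (0.19%) in cKO. The block leaves little of a gene's own spread to estimate, so p-values with the block rest largely on a spread shared among genes. Leaving out a library gave 4 calls without control 1, 80 without control 2, 15 without cKO 1 and 1, mt-Co2, without cKO 2. Of the 72 cells outside the Sst cluster, 32 came from cKO 2. In the 112 cells of the cluster 0 of 7222 genes passed (116 at an unadjusted p under 0.05, 0 by DESeq2), and with the block 5 did (0.0692%), all of them among the 76. They included mt-Co2, Npy and Sst, which were lower, and Gpr17, which was higher.

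Both peptides were low in cKO 2. Sst levels of 6461 and 1752 CPM in the controls overlapped with those in cKO, 2972 and 278 CPM. The log2 fold change was −1.37 (SE 0.84, adjusted p = 1.00), and −1.81 with the day as a block (adjusted p = 7.55e-09). Each cKO library was below the control of its own day. In the 112 cells Sst had 7533, 2723, 4565 and 682 CPM, a log2 fold change of −1.0, and −1.32 with the block (adjusted p = 0.000833). Over all 238 cells of the cluster the change was −0.59, and −0.57 with the block (adjusted p = 0.575), so the call for Sst depended on which cells were counted. Npy had 16259, 4601, 6170 and 484 CPM, with a log2 fold change of −1.69 (SE 0.91, adjusted p = 1.00), and −2.26 with the block (adjusted p = 7.86e-12). With the block it passed in the 112 cells (−1.61, adjusted p = 4.68e-05) and in all 238 (−1.50, adjusted p = 0.0030). Without cKO 2 neither peptide was called over all Lhx6 cells, and without cKO 1 both were (Sst −3.78, adjusted p = 0.0059; Npy −4.33, adjusted p = 0.0031).

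The other subtype genes did not move together. Nos1 had 286, 205, 188 and 50.3 CPM, below both controls in both cKO libraries, with a log2 fold change of −0.99 (adjusted p = 1.00) and −1.10 with the block (adjusted p = 0.000929). Its change in the 112 cells was −0.21, and it did not pass with the block (adjusted p = 0.955). Cort had 41.3, 20.7, 159 and 19.2 CPM and was higher with the block (log2 fold change 1.31, adjusted p = 0.0400), a difference carried by cKO 1. Of 18 medial subtype genes tested 14 had a fold change below 0 over all Lhx6 cells (median −0.40 on the log2 scale, against 0.01 over all genes), and 8 of 17 in the 112 cells (median 0.00). For 11 medial factors the median was −0.09. Slc32a1 had 213, 136, 185 and 45.5 CPM (log2 fold change −0.53, adjusted p = 1.00).

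Markers of other cells moved with the genotype over the same cells. All 6 astrocyte markers had fold changes above 0 in cKO over control (median log2 fold change 1.08), and with the block Slc1a3, Slc1a2 and Aqp4 passed. Slc1a3 had 159, 568, 488 and 1181 CPM over all Lhx6 cells. Within the Sst cluster 4 of 4 tested were above 0 (median 0.53) and 0 passed with the block. Without cKO 2, 3 of the 6 were above 0 and the median was −0.15. Their part in the results on the peptides was not tested.

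Mitochondrial genes and genes known from oligodendrocytes were among those with the smallest p-values where the groups did not overlap. No gene passed without the block, so the genes named here were taken by unadjusted p among genes with no overlap. Their separation was thus set by the choice, and 12.6% of all genes had both cKO libraries above both controls. The mitochondrial gene mt-Co2 had 59.5, 235, 5.97 and 28.7 CPM (log2 fold change −3.35, SE 0.76; with the block −3.07, adjusted p = 1.45e-12). It had 56.3, 198, 3.55 and 16.4 CPM in the Adarb2 cells, the same order of libraries. Another mitochondrial gene, mt-Atp6, went the other way with 780, 491, 1295 and 1552 CPM (with the block, adjusted p = 9.63e-05). Bcas1, Mbp, Timp4, Akt2, Hes1, Brpf1 and Grb10 were higher in cKO by 1.46 to 3.43 on the log2 scale, and Brpf1 alone of these did not pass with the block (adjusted p = 0.103). In the 112 cells mt-Co2 passed with the block (−3.27, adjusted p = 3.22e-05), whereas mt-Atp6 (0.65, adjusted p = 0.376), Bcas1 (0.484), Mbp (0.347), Timp4 (0.946), Grb10 (0.458) and Brpf1 (0.372) did not, and Akt2 and Hes1 were too low to be tested.

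The row named Drd had 44.6, 60.7, 34.8 and 19.2 CPM in the Lhx6 cells. Both cKO libraries were below both controls, as in 13.2% of all genes. The log2 fold change was −0.90 (SE 0.42, adjusted p = 1.00), and −0.87 with the block (adjusted p = 0.460). Within the Sst cluster it was −0.18. Sfxn1, the other gene listed with it, had 1296, 1165, 1002 and 560 CPM (log2 fold change −0.65, adjusted p = 1.00).

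**Figure D5:**
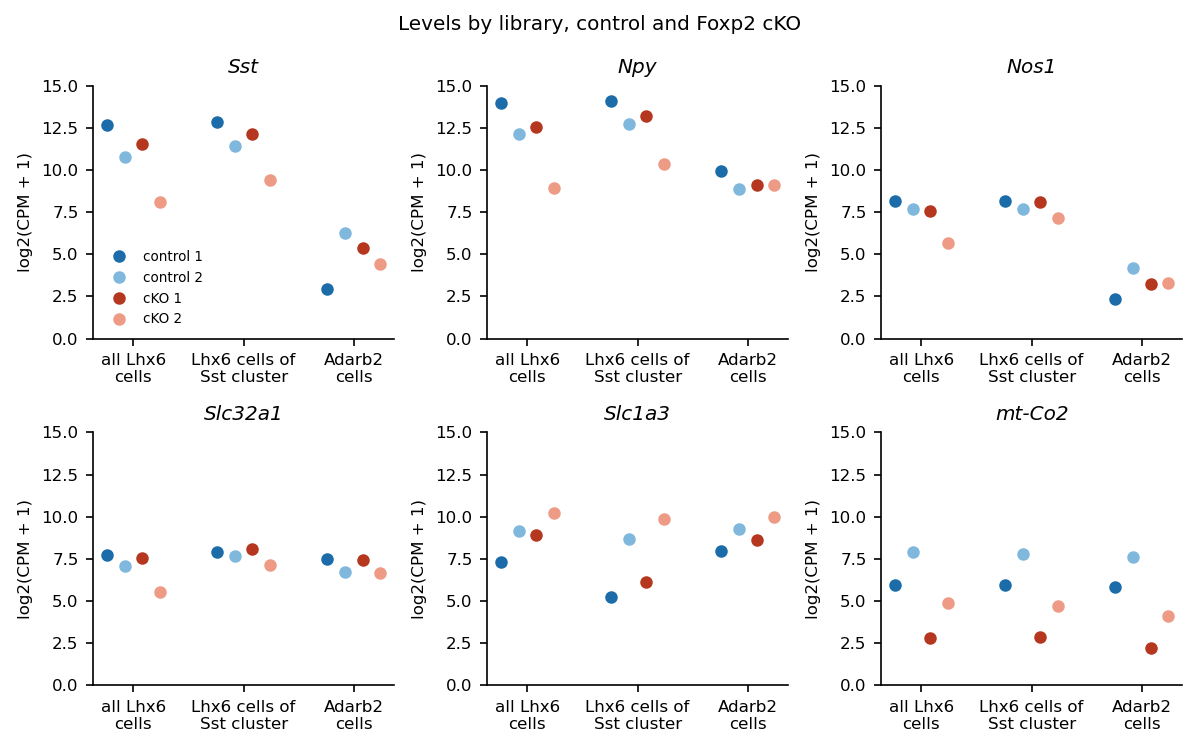
Level of Sst, Npy, Nos1, Slc32a1, Slc1a3 and mt-Co2 in the 4 libraries on the scale log2(CPM + 1), for all Lhx6 cells, for those in the Sst cluster and for Adarb2 cells, with 1 point per library. Sst runs from 6461 CPM in control 1 to 278 CPM in cKO 2, and Slc1a3 from 159 to 1181 CPM between the same libraries.

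The difference between the lineages in their response was tested directly. In a model with class, library and the interaction of class and genotype, 0 of 10510 genes passed (0.0%), with 537 at an unadjusted p under 0.05, and DESeq2 called 0 with 87. The smallest p-values belonged to Nnat (log2 difference of responses −1.01), Zbtb18 (1.39), Abracl (−1.72), Cldn5 (4.27) and Igfbpl1 (−2.19), each with an adjusted p of 0.356. Among the 112 Lhx6 cells and the Adarb2 cells of their 2 clusters, 3 of 8939 genes passed (0.0336%): Sst (−2.60), Gpr17 (4.45) and Pnoc (2.90). For Sst the fold change of cKO over control was thus lower in Lhx6 than in Adarb2 cells, where Sst was at 5.80, 13.6, 37.3 and 16.5 CPM and 1 cell of cKO 1 held 36 of the 68 counts of that library. Over all Lhx6 and Adarb2 cells the Sst difference had the other sign without control 1, at 0.95. Leaving out a library gave 3 calls without control 1, 35 without control 2, 57 without cKO 1 and 14 without cKO 2. Of the Gpr17 counts in cKO 1 Lhx6 cells, 42 of 64 came from 1 cell.

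No test of the share of Lhx6 cells could pass at this number of libraries. They made up 1.22% and 1.88% of control cells and 2.10% and 1.33% of cKO cells, a difference of 0.167 percentage points (exact permutation test, two-sided, p = 0.667), where 2 against 2 libraries cannot give a p under 0.333. Without control 1 the difference was −0.165 and without cKO 1 −0.217. Among cells with a Gad1 or Gad2 count they made up 7.09% and 7.11% in control and 7.98% and 4.39% in cKO (exact permutation p = 1.00). Without cKO 2 this difference changed sign, from −0.911 to 0.884 percentage points. Thinned to 1000 counts per cell, 48.7% and 48.9% of control Lhx6 cells and 42.4% and 7.32% of cKO ones had an Sst count, a difference of −24.0 percentage points (exact permutation p = 0.333), and −6.43 without cKO 2. Unthinned the values were 59.0%, 66.7%, 55.9% and 46.3%. In the 112 cells the thinned shares were 54.5%, 67.7%, 61.5% and 33.3%, the last of 9 cells. The Lhx6 cells of the Sst cluster were 6.00%, 4.90%, 5.28% and 0.965% of the cells with a Gad count. These sizes are a description, since Sst and Npy, which were low in cKO 2, helped to define the cluster.

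No cell of the other sort of the series met the rule. That sort took cells positive for golli-τ-eGFP, a reporter of subplate and deep-layer neurons, from mice of the same Foxp2 and Cre genotypes. Of its 11382 cells 481 had a Gad1 or Gad2 count and 0 met the rule, which allows a share of up to 0.0264% of cells with these counts. Lhx6 alone had counts in 41 cells there (66 counts), and 1 cell had counts of a Gad gene, Lhx6 and Adarb2. The median count per cell was 1302 there, so a count of Lhx6 was less likely to be seen than in the tdTomato sort.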

How the data were processed

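For each of the 2 sorts the authors deposited counts of genes in single cells, and per the submitters' processing notes the tools were bcl2fastq 2.17.1.14, Cell Ranger 2.1.1, FastQC 0.11.5, UMI-tools 0.5.4, STAR 2.5.2b, featureCounts (Subread 1.6.2) and SAMtools 1.6, with the builds mm10 and GRCm38.p6. The deposited counts did not behave like plain molecules (values of 2 were 0.307 to 1.69 times as frequent as values of 1), so no Poisson intervals are given, and exact binomial intervals of shares cover counting error only. The cells, gene lists and named genes were chosen with earlier results of these data known. Counts were summed per library and class and tested with edgeR 4.0.16 (quasi-likelihood, TMM, default filter, Benjamini-Hochberg adjusted p under 0.05), with DESeq2 1.42.0 as an alternative, in R 4.3.3. Libraries, not cells, were the replicates, and since nothing says that they came from separate animals the p-values refer to the spread between libraries. Both tools estimate that spread in part from all genes together. With so few libraries, and most of all with the replicate number as a block, a small p-value rests largely on this shared spread. It is then not a measure of the gene's own spread. All 11494 tdTomato cells were clustered with scanpy 1.11.5 and the Leiden method (leidenalg 0.10.2, 2000 variable genes, 30 principal components, 20 neighbours, resolution 1). Variable genes were chosen with the library as a batch, and each gene was scaled within its library. Foxp2, Drd, a few sex-linked genes, and mitochondrial, ribosomal, haemoglobin and dissociation genes were left out beforehand, and the genes of the cell rule were not. Shares were thinned to 1000 counts per cell. All doublet scores were kept in, and an alternative left out the highest 0.8% per 1000 cells. Replicate numbers pair the libraries because the labels give them a shared preparation day, and same-numbered libraries deviated together (correlation 0.37 over 8406 genes, which are not independent replicates). Values with this pairing as a block stand beside the results they change.

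On simulated counts the genotype test recovered 73 of 93 genes with a 4-fold change with 3 false calls, the test between classes 99 of 100 with 6, and the test of Sst-rich cells 84 of 95 with 2. In each simulation the changed genes were drawn from those above 20 CPM. Named genes were, beside Foxp2, Drd and Sfxn1, up to 5 members per list, the 10 smallest p-values for genotype (those past the threshold, then genes whose groups did not overlap), the 12 largest fold changes each way among called genes with 1 direction in all 4 libraries and at least 20 CPM, and the 5 smallest p-values of the interaction. Some genes that this rule selects are not reported here. Gpr17, Pnoc and Pcp4 were named after their values were seen. Alternatives were other size factors, no filter, each library left out, at least 3 counts in the cell rule, at least 3 Sst counts, and cells without markers of other types. Comparisons within the Sst cluster were added after seeing the data. Promoter sequence is RefSeq's.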

Additional observations from a re-analysis of the deposited data

How the results depend on the processing

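Under the replicate block the count of genes changed between cKO and control went from 0 to 76, and to 5 in Lhx6 cells of the Sst cluster and 5 in all cells of that cluster. It was 15 without a filter on low counts, 6 with the stricter cell rule and 1 to 80 with 1 library left out. The count between Lhx6 and Adarb2 cells, 879, was 474 with DESeq2, 551 with the stricter rule, 102 without cells holding markers of another type and 371 to 707 with 1 library left out. The interaction, 0 genes with or without the replicate block, gave 35 without the filter, 3 in the clusters and 3 to 57 with 1 library left out. The Sst-rich count, 471, was 259 with DESeq2, 203 and 127 for the Lhx6 cells and all cells of the Sst cluster, 28 with the stricter rule, 2 without mixed cells and 140 to 436 with 1 library left out. DESeq2 size factors changed none of these counts by over 1.5 times. The stricter rule left 40 Lhx6 cells and none from cKO 2, so its counts rest on the other libraries. Without mixed cells 31 Lhx6 cells remained, with 11 Sst-rich and 14 Sst-free ones, and no rich one came from cKO 2.

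The difference in the share of all cells, 0.167 percentage points, was −2.74 without mixed cells (as a share of the unmixed cells), −0.322 for Lhx6 cells of the Sst cluster and −0.217 to 0.551 with 1 library left out. The difference among cells with a Gad count ran from −2.71 to 0.884, and that in cells with an Sst count from −41.5 to −6.43, with 1 library left out. The latter was 10.2 with the stricter rule, where cKO 2 has 0 cells. Hes1 changed sign in all cells of the Sst cluster (−0.41, and −0.16 with the replicate block), as did the interactions of Cldn5 (−3.10 to 4.60) and Sst (−4.47 to 0.95) with 1 library left out. For the 24 genes chosen by the size of their difference between Lhx6 and Adarb2 cells 254 of the alternative values kept direction and call and 2 lost the call, and for the 24 chosen for Sst-rich cells 223 kept and 11 lost it. The cause of these changes was not tested.

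The limits are few cells and libraries. With 2 libraries per group the exact tests of shares cannot pass, cKO 2 holds 9 cells of the Sst cluster, and 2-fold changes between genotypes were mostly not recovered in simulation. Leaving out 1 library leaves an arm with 1, assumed to vary like the other group.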
